A study of Mus musculus with 16 samples.

Results

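Mouse embryonic stem cells (mESCs) with and without DNA methyltransferases were set side by side in serum: 3B3l-serum, in which a de novo methyltransferase is expressed constitutively, and TKO-serum, in which the methyltransferase genes are inactivated. The comparison rested on 4 of the 16 arrays of the series, the 2 labelled 3B3-3l in serum and the 2 labelled TKO in serum, chosen by their titles. All lines of the series derive from male J1 mESCs of the 129S4/SvJae strain. TKO mESCs lack functional Dnmt1, Dnmt3a and Dnmt3b. The 3B3l line (3B3-3l in the labels) is a Dnmt3a/3b knockout that carries exogenous, constitutively expressed Dnmt3b together with an added expression construct for the co-factor Dnmt3l, and its own Dnmt1 gene is not among those deleted. Both lines were grown without feeder cells on gelatin, in DMEM with FCS and 500 U/ml LIF. The other groups used here were 3B3l-2i (2 arrays) and TKO-2i (3 arrays), the same lines after 2 weeks in N2B27 medium with 1 uM of the MEK inhibitor PD0325901, 3 uM of the GSK3 inhibitor CHIR99021 and 1000 U/ml LIF, and J1-serum (4 arrays), the wild-type cells, which unlike the others were grown on inactivated SNLP feeder cells. The 3 J1-2i arrays entered the shared fit and are not described. Whether the 3B3l line is 1 clone is not given in the sources used here.

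DNA methylation of cytosines in CpG dinucleotides is written by the de novo enzymes Dnmt3a and Dnmt3b, helped by the catalytically inactive Dnmt3l, and is copied after replication by Dnmt1. In mESCs it is known to silence germ cell genes and X-linked testis gene families whose promoters it covers, whereas most CpG-rich promoters stay unmethylated. Pluripotency factors and housekeeping genes are expressed in mESCs with and without this mark.

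Each array is a 1-colour oligonucleotide array, and every value below is the log2 of a signal divided by its own array's 75th percentile, so 0 is a fairly bright probe and values below about -3 lie near background. The 2 TKO-serum arrays had 45.9% and 49.0% of spots well above background and the 2 3B3l-serum arrays 42.0% and 42.4%. Over the tested probes the replicates correlated with r = 0.979 in TKO-serum and 0.986 in 3B3l-serum, against 0.938 to 0.947 between the lines. Both TKO-serum arrays lay on slide 1 and both 3B3l-serum arrays on slide 3, which was scanned on another day, and no slide held both lines, so the slide and the line cannot be told apart within the 4 arrays. A fit with the slide as a block was possible through the J1-serum arrays, of which replicate 1 lay on slide 3, and it rests on that single array. Nothing in the labels says that replicates came from separate cultures, so the p-values measure the spread between these arrays, which may be technical. The cells were bulk cultures, in which fewer cells of a type and less RNA per cell cannot be told apart.

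Many genes differed in both directions. Of 13917 genes tested, 1741 had a probe that differed at least 2-fold with a limma adjusted p no higher than 0.05. Of these, 830 genes were higher in 3B3l-serum (5.96% of the tested genes) and 916 were higher in TKO-serum (6.58%), with 5 genes counted in both directions through different probes. Among called probes, 853 of the 1599 higher in TKO-serum were not well above background on either 3B3l-serum array, and 390 of the 1296 higher in 3B3l-serum were not well above background on either TKO-serum array. For such genes a fold is given as a lower bound ("at least"). The 2 lines did not overlap for 2884 of the 2895 called probes, so a lack of overlap, where it is stated below, adds nothing to a call. The median over all tested probes was 0.11 on the log2 scale in favour of 3B3l-serum, a shift that differences near 0 should be read against. With the slide as a block, 464 of the 830 (55.9%) and 538 of the 916 (58.7%) were called in the same direction.

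**Figure D1:**
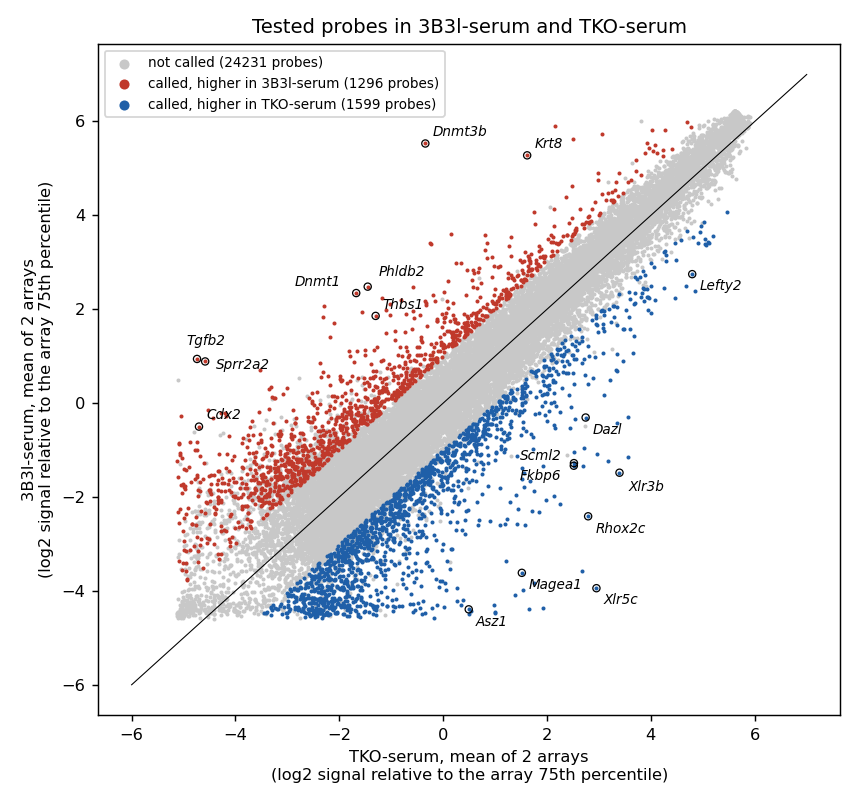
Mean log2 signal of each tested probe in TKO-serum (x axis, 2 arrays) against 3B3l-serum (y axis, 2 arrays), each divided by the array's 75th percentile; grey points were not called, red points were called higher in 3B3l-serum (1296 probes) and blue points higher in TKO-serum (1599 probes). Dnmt3b and Krt8 stand far above the diagonal, and Xlr5c, Rhox2c and Asz1 far below it.

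Dnmt3b and Dnmt1 were higher in 3B3l-serum. Dnmt3b, a de novo enzyme, read -0.25 and -0.44 in TKO-serum and 5.62 and 5.44 in 3B3l-serum with its main probe, a log2 difference of 5.87 (SE 0.14; limma adjusted p = 1.3e-10), or 58.6-fold. The groups lay far apart, and 3B3l-serum also exceeded the 4 J1-serum arrays, which read 2.88 to 3.08. Its other 2 probes differed by 0.27 and 0.44 and were not called. On these, 3B3l-serum averaged -0.999 and 0.78, far below the J1-serum means of 2.51 and 4.23 and near the TKO-serum means of -1.27 and 0.35. Which part of the transcript each probe reads was not determined here. Dnmt1, the maintenance enzyme, read -1.70 and -1.65 in TKO-serum and 2.34 on both 3B3l-serum arrays, a log2 difference of 4.02 (SE 0.13; limma adjusted p = 1.4e-09). J1-serum arrays read 1.61 to 1.91 for Dnmt1, just below 3B3l-serum. Dnmt3a was not well above background in either line, while the J1-serum arrays read 0.52 to 0.81. Dnmt3l was saturated on both arrays of both lines, at 5.51 and 5.57 in TKO-serum and 5.89 and 5.80 in 3B3l-serum, so that its levels could not be compared.

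Germ cell RNA-binding genes and genes of the piRNA pathway, which silences transposons in the male germline, made up 8 calls higher in TKO-serum. Together they form the list called piRNA here. Of 23 listed genes, 16 were tested, of which 8 were called higher in TKO-serum and 0 higher in 3B3l-serum. The median log2 difference of the list was -1.01, beside 0.13 over all tested genes. For these gene lists each gene is read by its probe with the highest mean, by which 5.18% of all tested genes were called higher in 3B3l-serum and 5.48% higher in TKO-serum. Promoter sequences are shown for 2 called genes of this list and 1 of the meiosis list, as examples of CpG-rich promoters, which other called genes such as Stk31 and Smc1b also have. The RefSeq (GRCm38.p6) windows from 250 bases before to 50 bases after the start are given for Dazl (chr17:50293571-50293870, minus strand), Fkbp6 (chr5:135349864-135350163, minus strand) and the meiosis gene Tex12 (chr9:50561219-50561518, minus strand), 5′ to 3′ along the gene with each CpG in capitals.
Dazl: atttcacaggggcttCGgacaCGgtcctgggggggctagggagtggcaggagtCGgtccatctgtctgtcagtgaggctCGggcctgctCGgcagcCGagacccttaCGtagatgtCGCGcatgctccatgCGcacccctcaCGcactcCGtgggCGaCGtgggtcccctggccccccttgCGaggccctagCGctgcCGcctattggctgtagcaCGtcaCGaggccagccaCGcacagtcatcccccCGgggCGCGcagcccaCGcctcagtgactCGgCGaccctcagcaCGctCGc
Fkbp6: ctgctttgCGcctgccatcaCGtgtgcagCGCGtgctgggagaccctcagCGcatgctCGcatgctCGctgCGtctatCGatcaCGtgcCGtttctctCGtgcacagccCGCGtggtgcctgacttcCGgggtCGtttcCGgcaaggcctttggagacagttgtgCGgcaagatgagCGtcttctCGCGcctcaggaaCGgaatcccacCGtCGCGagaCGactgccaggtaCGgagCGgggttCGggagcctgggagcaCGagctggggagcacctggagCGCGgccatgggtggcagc
Tex12: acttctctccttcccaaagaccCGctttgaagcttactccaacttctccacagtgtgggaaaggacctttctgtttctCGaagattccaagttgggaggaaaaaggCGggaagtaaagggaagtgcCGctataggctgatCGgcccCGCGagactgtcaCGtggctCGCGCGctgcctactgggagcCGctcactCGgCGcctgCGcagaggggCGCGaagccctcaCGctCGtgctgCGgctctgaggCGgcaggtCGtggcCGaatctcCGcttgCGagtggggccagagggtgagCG
These windows hold 28, 32 and 26 CpG, against a median of 8 over the 27025 genes of the promoter table. That table holds many genes that were not tested here, so its median is no measure for tested genes. Over the tested members with a window the medians were 22 for the piRNA list (14 genes) and 19.5 for the meiosis list (22 genes). CpG-rich windows were thus common among tested members, called or not.

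Dazl, which encodes a germ cell RNA-binding protein, read 3.00 and 2.49 in TKO-serum and -0.42 and -0.20 in 3B3l-serum. The groups did not overlap, with a log2 difference of -3.05 (SE 0.24; limma adjusted p = 2.4e-06) that became -2.37 with the slide as a block. Fkbp6, a co-chaperone of the piRNA pathway, read 2.24 and 2.80 in TKO-serum and -1.12 and -0.95 in 3B3l-serum, a log2 difference of -3.55 (SE 0.17; limma adjusted p = 3.7e-08). Its second probe differed by -3.85. Asz1, a germ cell protein of the mitochondrial surface, read 0.30 and 0.69 in TKO-serum and was not well above background on either 3B3l-serum array (-4.31 and -4.48), at least 7.49-fold lower than TKO-serum (limma adjusted p = 8.9e-08).
The other called members had smaller differences. Gtsf1, a small zinc finger protein of the pathway, differed by -1.79 (SE 0.12) and Gpat2, a mitochondrial acyltransferase, by -1.46 (SE 0.15). Stk31, a kinase-like germ cell protein, differed by -1.25 and was not called with the slide as a block (adjusted p = 0.065). Members that did not pass the test were not uniformly lower: Ddx4, the germ cell helicase Vasa, differed by 0.70 and Tdrd5 by 0.91, and Piwil2 by -0.95. Of the 8 called genes, 7 were called in the same direction with the slide as a block, and leaving out single arrays gave 7 to 10 calls in that direction and up to 1 in the other.

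Of 28 listed meiosis genes, 26 were tested and 8 were called higher in TKO-serum, with a list median of -0.41 and 0 genes called higher in 3B3l-serum. Stra8, a regulator of meiotic entry, read 1.30 and 1.79 in TKO-serum and -0.45 and -0.61 in 3B3l-serum, a log2 difference of -2.07 (SE 0.21; limma adjusted p = 2.1e-05). Tex12, a synaptonemal complex subunit, read -0.87 and -0.69 in TKO-serum and was not well above background in 3B3l-serum, at least 2.94-fold lower there. Hormad1, a protein of the meiotic chromosome axis, read 2.56 and 2.59 in TKO-serum and 1.16 and 1.09 in 3B3l-serum, with all 3 of its probes called.
In each of these genes the 2 lines did not overlap. The meiotic cohesin Smc1b differed by -1.41 (SE 0.25) and the testis surface protein Tex101 by -1.59 (SE 0.29), the second of which was not called with the slide as a block (adjusted p = 0.14). Sycp1, the transverse filament of the synaptonemal complex, was at least 1.48-fold lower in 3B3l-serum but was called neither with the slide as a block nor without TKO-serum replicate 1 or 3B3l-serum replicate 2. The recombinase gene Dmc1 differed by 0.98 and the testis bromodomain gene Brdt, well above background on only 1 TKO-serum array, by 1.03, both without passing the test. Of the 8 called meiosis genes, 5 were called in the same direction with the slide as a block.

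The Xlr genes, which encode germ cell nuclear proteins, form clusters of near-identical copies, and the promoter windows of Xlr3b (chrX:73191929-73192228, plus strand) and of Rhox4e from the reproductive homeobox cluster (chrX:37557162-37557461, plus strand) are given to show that these promoters are far poorer in CpG than those of Dazl, Fkbp6 and Tex12.
Xlr3b: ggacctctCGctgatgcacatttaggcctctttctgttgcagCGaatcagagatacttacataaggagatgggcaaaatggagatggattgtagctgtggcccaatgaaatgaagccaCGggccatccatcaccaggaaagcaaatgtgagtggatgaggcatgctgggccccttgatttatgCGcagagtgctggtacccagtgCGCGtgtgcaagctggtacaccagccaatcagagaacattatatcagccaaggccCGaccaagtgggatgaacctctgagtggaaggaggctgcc
Rhox4e: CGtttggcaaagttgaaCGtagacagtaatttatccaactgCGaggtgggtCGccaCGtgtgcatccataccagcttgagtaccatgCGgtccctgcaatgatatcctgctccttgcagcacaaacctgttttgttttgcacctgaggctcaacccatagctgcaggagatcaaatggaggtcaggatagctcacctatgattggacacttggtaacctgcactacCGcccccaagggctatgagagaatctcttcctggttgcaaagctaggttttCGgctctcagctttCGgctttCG
They hold 7 and 10 CpG. Because family members are so alike, a probe may read several copies, and values of single Xlr, Rhox, Magea, Zscan4, Fthl17 and Sprr2a genes are uncertain in that respect.

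Of 10 tested Xlr-type genes, 9 were called higher in TKO-serum, with a median log2 difference of -4.22. Most of the 10 were not well above background in 3B3l-serum, so that median gives no exact size. Xlr3b, with its main probe, read 3.53 and 3.59 in TKO-serum and -1.24 and -1.07 in 3B3l-serum, a log2 difference of -4.71 (SE 0.14; limma adjusted p = 6.6e-10). Xlr5c read 2.79 and 3.11 in TKO-serum and was not well above background in 3B3l-serum (-4.29 and -3.60), at least 41.2-fold higher in TKO-serum. Xlr5b was at least 34.1-fold, Xlr4a at least 20.1-fold and Xlr3a at least 15.5-fold higher in TKO-serum. All these groups lay apart by several log2 units. J1-serum lay between the lines, at 1.79 to 1.83 for Xlr3b and -0.68 to -0.54 for Xlr5c. The list also holds Sly, a relative on the Y chromosome, which differed by -1.6.

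The Rhox cluster, homeobox genes of reproductive tissues, split between its subfamilies. Of 15 tested members, 7 were called higher in TKO-serum, and all but 1 of these were copies of Rhox2 and Rhox4. Rhox2c read 2.57 and 3.01 in TKO-serum and was not well above background in 3B3l-serum (-2.61 and -2.21), at least 31.8-fold higher in TKO-serum (limma adjusted p = 5.8e-09). In J1-serum it read -2.59 to -2.26 and was well above background on 2 of the 4 arrays. Its copy Rhox2h was at least 17.5-fold and Rhox4g at least 6.76-fold higher in TKO-serum. Rhox5, Rhox6 and Rhox9, the members best known from trophoblast, differed by 0.85, 0.34 and -0.64 and were not called.
Of 9 tested type I Mage genes, known as cancer-testis antigens, 7 were called higher in TKO-serum. Since 6 of the 9 passed the filter on dim probes through TKO arrays alone, that count could hardly have come out otherwise and supports nothing. Magea1 read 1.48 and 1.55 in TKO-serum and -3.39 and -3.84 in 3B3l-serum, where it was not well above background, at least 15.2-fold higher in TKO-serum. J1-serum did not rise above background on any array either. Under the slide block, 7 of the 9 Xlr calls, 7 of the 7 Rhox calls and 6 of the 7 Mage calls were in the same direction. A filter that required probes well above background on all 16 arrays, and so removed genes dim in 3B3l-serum, left 2 Xlr genes, both called, 5 Rhox genes and 1 Mage gene, with 0 called by limma in either of these 2 families.

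**Figure D2:**
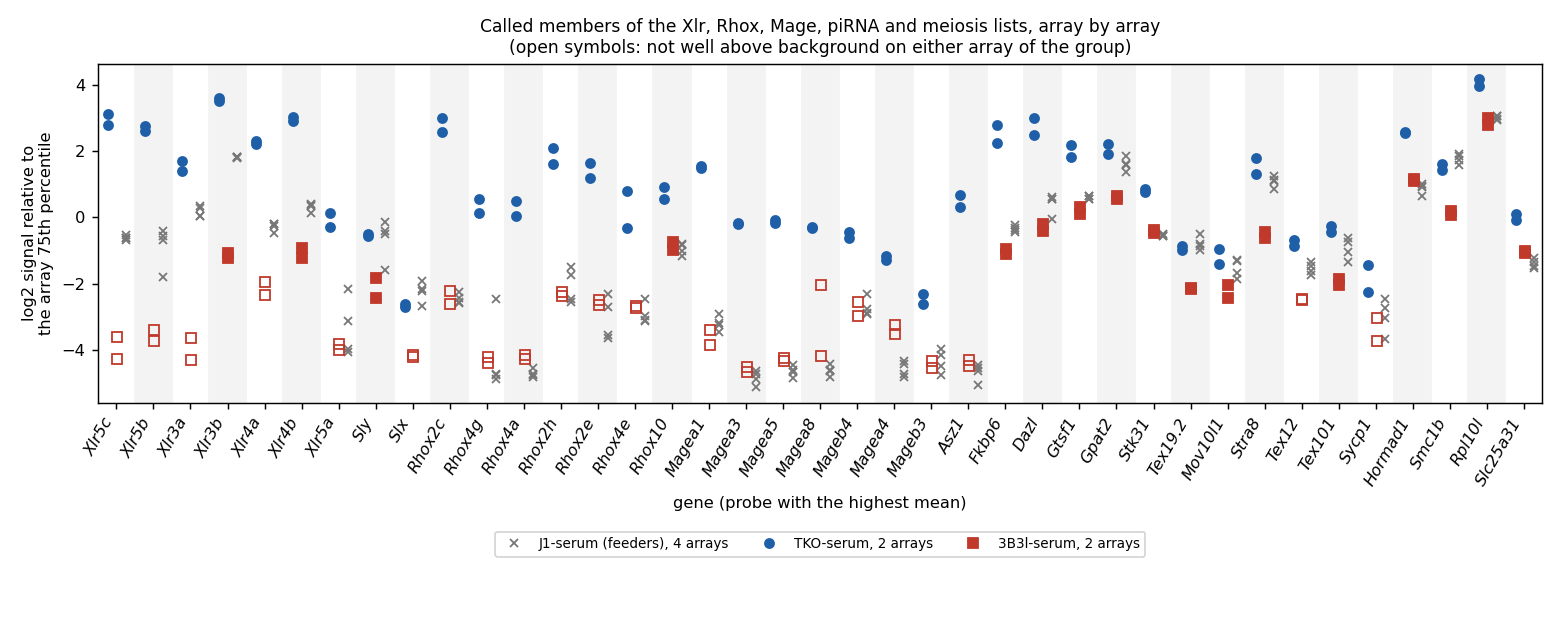
Log2 signal over each array's 75th percentile (y axis) for the called members of the Xlr, Rhox, Mage, piRNA and meiosis lists (x axis), with 1 symbol per array: TKO-serum in blue circles (2 arrays), 3B3l-serum in red squares (2 arrays) and J1-serum in grey crosses (4 arrays); open symbols mark a group not well above background on either array. In every gene both TKO-serum arrays lie above both 3B3l-serum arrays, and Magea1 and Asz1 are among the genes not well above background in 3B3l-serum.

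The X chromosome as a whole held more calls in one direction. Of 540 tested X-linked genes, 73 (13.5%) were called higher in TKO-serum, against 5.15% of 13370 autosomal genes and a range of 4.20% to 6.21% over single autosomes. Calls higher in 3B3l-serum made up 5.56% on the X and 5.16% on autosomes. Of the 9 tested Mage genes, 6 passed the filter on dim probes only through TKO arrays, and such genes were not counted for the rest of the X chromosome. Near-identical copies also count as separate genes. The X share therefore describes the tested probes and supports nothing further. The Xlr, Rhox and Mage lists accounted for 21 of the 73, and 52 of the 508 X-linked genes outside them (10.2%) were also called higher in TKO-serum. These included Scml2, a germ cell polycomb protein, which read 2.55 and 2.48 in TKO-serum and -1.40 and -1.16 in 3B3l-serum, with all 3 probes called (J1-serum -0.35 to 0.06). They also included Fthl17e, an X-linked relative of ferritin heavy chain, which read 2.59 and 2.84 in TKO-serum and -0.63 and -1.29 in 3B3l-serum. Both genes were without overlap between the lines. The median log2 difference was -2.46 for the 73 genes and -1.49 for the autosomal genes called the same way. Since 50 of the 73 were not well above background in 3B3l-serum, the first median gives no exact size and the 2 cannot be compared as sizes. The slide block left 57 of the 73 called in the same direction.

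Runs of at least 3 neighbouring tested genes called the same way numbered 16, and 8 of these lay on the X chromosome, all higher in TKO-serum. Most of their genes were not well above background in 3B3l-serum, and the limits given for the X share hold for these runs too. The longest covered 6 Rhox2 and Rhox4 genes, at least 6.28-fold (Rhox4e) to at least 31.8-fold (Rhox2c) higher in TKO-serum. A run of 5 Xlr-region genes went from at least 1.6-fold (DXBay18) to at least 34.1-fold (Xlr5b), and a run of 4 Magea genes from at least 3.49-fold (Magea8) to at least 15.2-fold (Magea1). In the run of Xlr3b, Xlr4b and Xlr5c, Xlr3b and Xlr4b were well above background in both lines, with a log2 difference of -4.05 for Xlr4b. Outside the Xlr, Rhox and Mage lists, Ctag2l1, Gm5640, Ctag2l2 and Gm5936 formed a run at least 2.44-fold to at least 5.57-fold higher in TKO-serum, and Zmat1, Gm15023, Tceal6, Gm7903 and AV320801 another. In the latter, Gm7903 was at least 16.7-fold higher in TKO-serum, whereas Zmat1 and Tceal6 (adjusted p = 0.14) were not called with the slide as a block. Gm5168, Gm2030 and Slx made up the weakest X-linked run, and Gm5168, which was not well above background in either line, turned to 0.20 with the slide as a block.
Among the 8 autosomal runs, 4 were higher in TKO-serum and 4 higher in 3B3l-serum. The 3 stearoyl-CoA desaturase genes Scd1, Scd2 and Scd3, enzymes of monounsaturated fatty acid synthesis, rose in 3B3l-serum by 1.28, 1.33 and 1.44. Scd1 was not called with the slide as a block (0.97), and none of the 3 was called in 2i (0.26 to 0.33). Scd2 read 4.11 and 3.99 in TKO-serum and 5.49 and 5.27 in 3B3l-serum, without overlap. The surface antigen genes Ly6a and Ly6c1 formed another such run on chromosome 15. Ly6c1 read -2.36 and -1.86 in TKO-serum and 1.83 and 1.6 in 3B3l-serum, a log2 difference of 3.82 (SE 0.18; limma adjusted p = 3.3e-08). Ly6a differed by 4.15 but was well above background on only 1 of the TKO-serum arrays.

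CpG counts of the promoter windows could be compared only where at least 80% of the genes had a window. For all genes called in either direction 76.6% (higher in 3B3l-serum) and 76.4% (higher in TKO-serum) had one, so that comparison is void. Of the 80 X-linked genes with any probe called higher in TKO-serum, 71 had a window, with a median of 9 CpG against 14 for 467 of the 540 tested X-linked genes. Called piRNA and meiosis genes had medians of 18.5 and 21.5 CpG (8 of 8 genes each), called Xlr genes 7.5 (8 of 9), Rhox genes 9 (7 of 7) and Mage genes 2 (7 of 7). These sets are small, and the medians are descriptions without a test.
The E-box CACGTG, which reads the same on both strands, was in 7.39% of all windows of the promoter table, in 4 of the 8 called meiosis genes (50%) and in 3 of the 8 called piRNA genes (37.5%). Over all tested members with a window the shares were similar, 9 of 22 meiosis genes (40.9%) and 5 of 14 piRNA genes (35.7%). It occurred 2 times in the Fkbp6 window, 1 time in that of Tex12 and 1 time in that of Rhox4e. The sequence TTCCCGCC, on either strand (GGCGGGAA), was in 2.35% of all windows, in 5 of the 22 tested meiosis genes and in 3 of the 8 called ones (37.5%), Tex12 and Hormad1 among them. The Dazl, Xlr3b and Krt8 windows held neither. The promoter table holds many genes that were not tested here, so its shares are no measure for tested genes. Over the 467 tested X-linked genes with a window, 12.6% held CACGTG and 4.93% held TTCCCGCC on either strand.

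In the other direction, 4 keratins of simple epithelia were higher in 3B3l-serum. The promoter window of Krt8 (chr15:102004293-102004592, minus strand) is shown because Krt8 had the largest difference of the 4. It holds 6 CpG, beside 17 in that of Krt18 and 21 in that of Krt7.
Krt8: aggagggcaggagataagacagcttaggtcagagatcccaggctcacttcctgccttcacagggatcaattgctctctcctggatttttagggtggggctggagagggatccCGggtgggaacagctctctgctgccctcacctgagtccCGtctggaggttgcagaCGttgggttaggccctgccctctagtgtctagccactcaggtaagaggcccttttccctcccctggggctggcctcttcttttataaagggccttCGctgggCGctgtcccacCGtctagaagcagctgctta
Krt8, a keratin filament protein, read 1.51 and 1.73 in TKO-serum and 5.21 and 5.35 in 3B3l-serum, a log2 difference of 3.66 (SE 0.12; limma adjusted p = 1.8e-09), or 12.6-fold. Its filament partner Krt18 read 2.46 and 2.52 in TKO-serum and 5.51 and 5.72 in 3B3l-serum, and Krt19 read 0.04 and 0.26 against 3.52 and 3.69. Krt7 differed by 3.24 (SE 0.21). The lines were far apart in all 4 keratins, and J1-serum lay between them for Krt8 (2.77 to 2.99) and Krt18 (3.23 to 3.91). Dsp, which encodes the desmosomal protein desmoplakin, also rose by 2.24 (SE 0.20), whereas the tight junction gene Ocln was lower in 3B3l-serum by -1.81 (SE 0.17). Other junction genes were not called: Cdh1, the epithelial cadherin, differed by 0.40 and Epcam by 0.08. Altogether 6 of the 14 genes of the epithelial list were called higher in 3B3l-serum and 1 lower, and Cldn7, the weakest of the 6 (1.04), was not called with the slide as a block (0.79).

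The same keratins are shared with the trophoblast list, of whose 19 tested members 8 were called higher in 3B3l-serum and 0 lower (median 1.00). Cdx2, a transcription factor of trophectoderm and of posterior mesoderm, was not well above background in TKO-serum (-4.59 and -4.82) and read -0.44 and -0.56 in 3B3l-serum, at least 8.25-fold higher (limma adjusted p = 2.1e-08). Hand1 was at least 3.98-fold higher in 3B3l-serum. Gata3 rose by 1.21. Eomes read -1.82 and -2.42 in TKO-serum and -1.24 and -0.79 in 3B3l-serum, a log2 difference of 1.11 that was not called without TKO-serum replicate 2 (0.81) or 3B3l-serum replicate 2 (0.88). Elf5, a defining trophoblast gene, was not tested, and Tfap2c (0.15), Ascl2 (0.21) and Plet1 (0.02) were not called. The summed linear signal of the tested trophoblast list, relative to the 75th percentile, was 31.7 to 34.8 in TKO-serum, 121 to 130 in 3B3l-serum and 35.6 to 42.7 in J1-serum. Most of the sum in 3B3l-serum came from Krt18, Krt8 and Krt19, whose mean log2 signals there were 5.62, 5.28 and 3.61. Under the slide block, all 8 calls were in the same direction.

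Contractile actin, S100 and annexin genes were called higher in 3B3l-serum in 18 of 25 tested members, with 0 called lower and a median of 1.45. S100a6, a calcium-binding protein, read 2.89 and 3.23 in TKO-serum and 5.72 and 5.74 in 3B3l-serum. Thbs1, the matrix protein thrombospondin, read -0.96 and -1.64 in TKO-serum and 1.86 and 1.85 in 3B3l-serum, a log2 difference of 3.16 (SE 0.22; limma adjusted p = 9.5e-07). Anxa3, a membrane-binding annexin, read -0.56 and 0.08 against 3.50 and 3.29.
None of these overlapped between the lines. Tagln, an actin-binding protein of smooth muscle, read 2.35 and 2.39 in TKO-serum and 4.40 and 4.38 in 3B3l-serum, with J1-serum at 3.59 to 3.98. The matricellular genes Ccn2 and Ccn1, known targets of YAP and SRF, rose by 2.32 (SE 0.21) and 2.16 (SE 0.22). Vcl, Flna, Vim, Tpm1 and Tpm2, which encode cytoskeletal proteins, rose by 1.49, 1.22, 1.51, 1.30 and 1.12. Myl9, a myosin light chain, was an exception at -0.96, which did not pass the test. With quantile normalization 17 members were called higher and 1 lower in 3B3l-serum. With the slide as a block, 17 of the 18 calls were in the same direction, Acta2 (adjusted p = 0.094) being the exception.

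**Figure D3:**
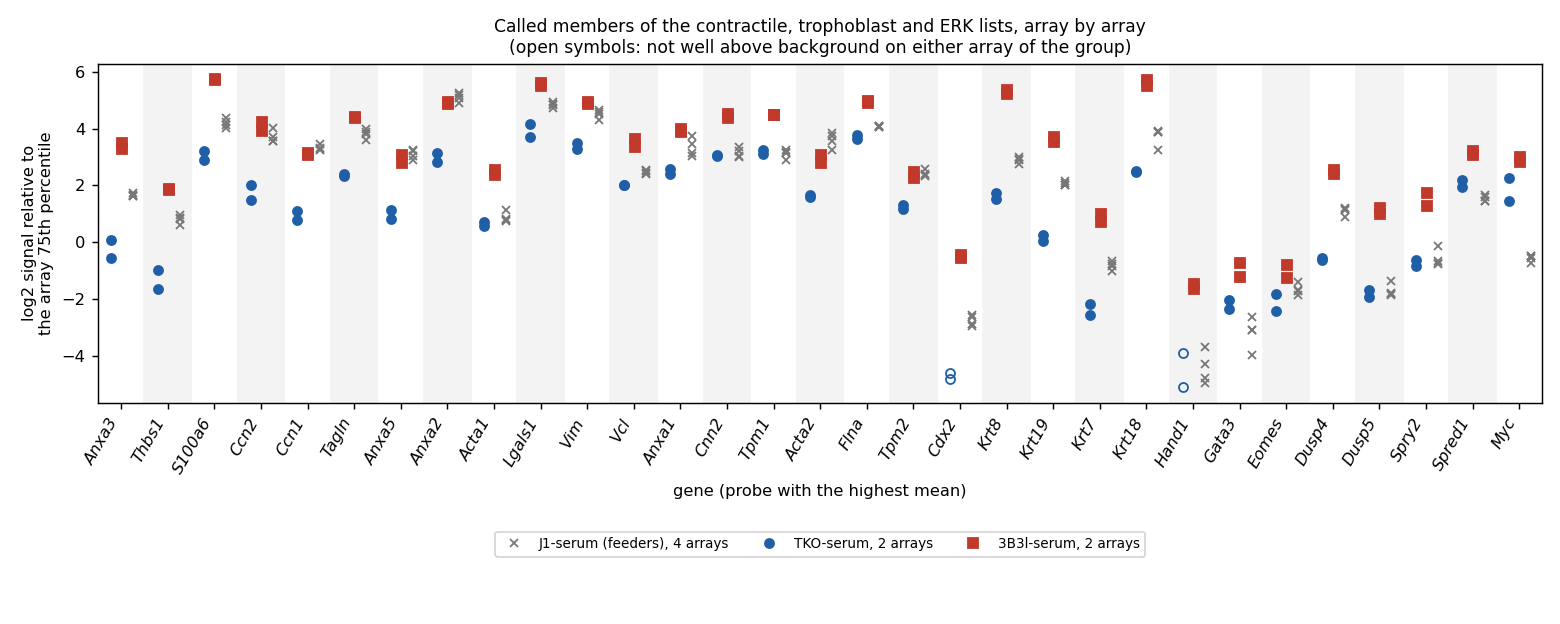
Log2 signal over each array's 75th percentile (y axis) for the members of the contractile, trophoblast and ERK feedback lists called higher in 3B3l-serum (x axis), with 1 symbol per array: TKO-serum in blue circles (2 arrays), 3B3l-serum in red squares (2 arrays) and J1-serum in grey crosses (4 arrays); open symbols mark a group not well above background on either array. Both 3B3l-serum arrays lie above both TKO-serum arrays in every gene, while J1-serum, grown on feeders, lies at or between the lines in most contractile genes and below both for Myc.

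Several single genes outside the lists had large differences. Tgfb2, a TGF-beta ligand, was not well above background in TKO-serum (-4.56 and -4.92) and read 0.86 and 1.02 in 3B3l-serum, at least 22.4-fold higher (limma adjusted p = 5.9e-08). J1-serum read -2.28 to -1.33. Tgfb1i1, a focal adhesion adaptor induced by TGF-beta, was at least 11.8-fold higher in 3B3l-serum, and the matricellular gene Ccn4 at least 10.2-fold. Itga3, an integrin chain that binds laminin, read -1.68 and -2.69 in TKO-serum and 1.30 and 1.52 in 3B3l-serum. Nt5e, a surface nucleotidase of mesenchymal cells, was at least 10.5-fold higher, Pmp22, a membrane protein of myelin and epithelia, at least 18.3-fold, and Sprr2a2, of the cornified envelope, at least 21.6-fold. Phldb2, which anchors microtubules at the cell cortex, read -1.43 and -1.47 in TKO-serum and 2.48 and 2.49 in 3B3l-serum, a log2 difference of 3.93 (SE 0.13). Vgf, a neuropeptide precursor, differed by 3.42 (SE 0.20). Vmn1r204 was at least 10.5-fold higher but was not called with the slide as a block (adjusted p = 0.28) or without 3B3l-serum replicate 1, and the second probe of Tfcp2l1 fell from 3.50 to 0.08 with the slide as a block.

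Fibroblast markers moved with these groups although both lines were feeder-free. Of 20 listed markers 14 were tested, and 8 were called higher and 1 lower in 3B3l-serum (median 1.01). Col1a1, a fibrillar collagen chain, read -0.46 and -1.6 in TKO-serum and 1.39 and 2.35 in 3B3l-serum, a log2 difference of 2.90 (SE 0.46; limma adjusted p = 0.00064), with J1-serum at 2.02 to 2.79. Col1a2 and Col5a1 rose by 1.53 and 1.66. Twist1, a mesenchymal transcription factor, went the other way by -2.11, but was not called with the slide as a block (adjusted p = 0.2) or without 3B3l-serum replicate 1. The summed linear signal of the list was 14.7 to 15.4 in TKO-serum, 40.7 to 41.3 in 3B3l-serum and 55.1 to 67.6 in J1-serum. Pdgfrb and Dcn were not well above background in either feeder-free line, and Col6a2, Fbn1, Lum, Postn, Lox and Prrx1 were not tested. The part of other cell types in the contractile and matrix results was not tested. The 8 calls include Pdgfrb, and Acta2 and Tagln, which the contractile list also holds. With the slide as a block 4 of them were in the same direction, and without TKO-serum replicate 2 there were 5.

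The ERK list joins feedback genes, which dampen MAP kinase signalling and are induced by it, with immediate early genes. It was partly higher in 3B3l-serum, with 5 of 19 tested members called higher and 0 lower (median 0.63). Dusp4, a MAP kinase phosphatase, read -0.53 and -0.61 in TKO-serum and 2.41 and 2.54 in 3B3l-serum, a log2 difference of 3.05 (SE 0.45; limma adjusted p = 0.00036). Dusp5, an ERK phosphatase, differed by 2.92 (SE 0.18) and the feedback inhibitor Spry2 by 2.25 (SE 0.24). The groups did not overlap in any of these. Dusp6 (0.76) and Spry4 (-0.47), which belong to the same feedback, and the immediate early gene Egr1 (-0.24) were not called. Spred1 (1.07) and Myc (1.05) were called at the limit, and each fell below a fold of 2 when 1 array was left out (Spred1 0.95 without TKO-serum replicate 1, Myc 0.65 without TKO-serum replicate 2). With quantile normalization 3 members were called, with the slide as a block 8, and without 1 array 4 to 7.
Of 13 tested primitive streak genes, 7 were called higher in 3B3l-serum and 0 lower (median 1.11), but 3 of the 13 passed the filter on dim probes only through 3B3l arrays and 2 only through TKO arrays, so the count supports nothing. Besides Cdx2, Hand1 and Eomes these were Wnt3, T, Cdx1 and Sp5. Wnt3, the ligand that starts the streak, was at least 3.08-fold higher in 3B3l-serum. Sp5, a direct Wnt target, read -0.37 and -0.26 in TKO-serum and 1.44 and 1.84 in 3B3l-serum. T was not well above background in either line. Of 14 tested Wnt targets, 6 were called higher and 1 lower in 3B3l-serum, but Axin2, the most general target, was not well above background in either line, and Lef1, the 1 called lower (at least 2.25-fold), was not called with the slide as a block. With quantile normalization 4 Wnt targets were called higher and 2 lower.

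**Figure D4:**
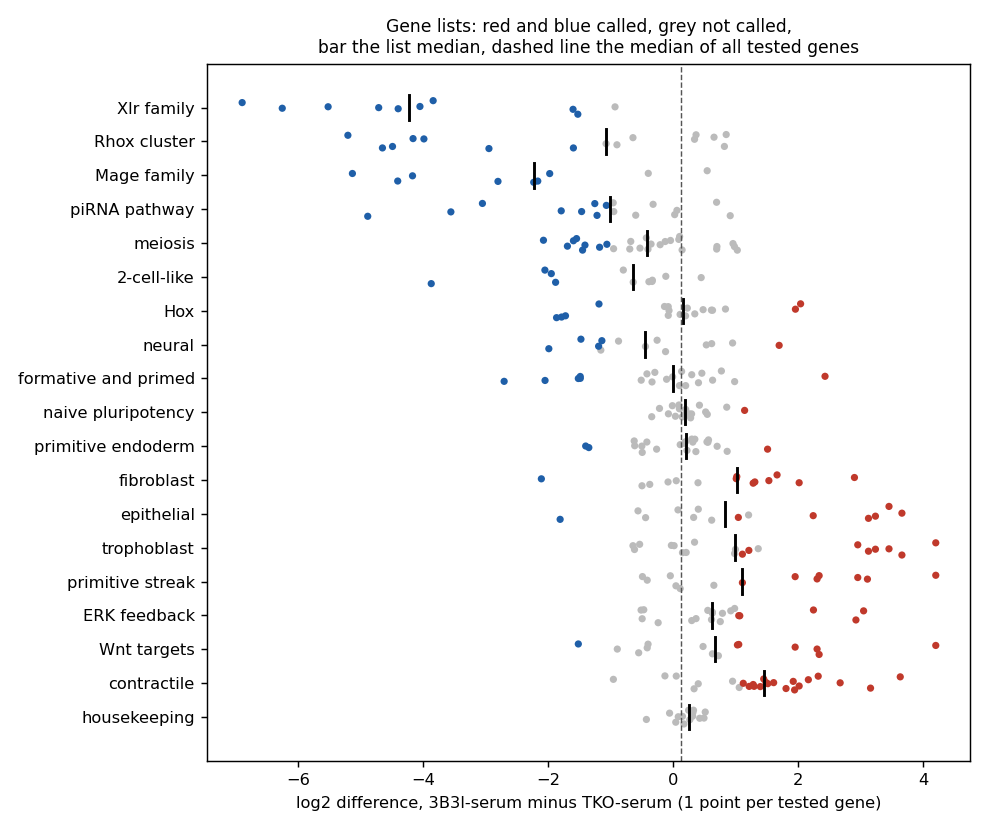
Log2 difference, 3B3l-serum minus TKO-serum (x axis), of every tested gene of 19 gene lists (y axis), 1 point per gene read by its probe with the highest mean; red points were called higher in 3B3l-serum, blue points higher in TKO-serum and grey points were not called, black bars give list medians and the dashed line the median of all tested genes (0.13). The Xlr, Rhox, Mage and piRNA lists extend to the left, the contractile, trophoblast and streak lists to the right, and the naive pluripotency and housekeeping lists cluster near the dashed line.

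Pluripotency factors differed little. Of 18 naive and general pluripotency genes, all clearly detected on the 4 arrays, 1 was called higher in 3B3l-serum and 0 lower (median 0.19). Tbx3, the 1 called, read 2.6 and 2.47 in TKO-serum and 3.62 and 3.73 in 3B3l-serum. Sox2 differed by 0.10 (SE 0.20), Klf4 by 0.04 (SE 0.15), Prdm14 by 0.20 (SE 0.13) and Esrrb by 0.30 (SE 0.11). Pou5f1 and Zfp42 were saturated on all 4 arrays, and the main probe of Nanog on 3 of them, so differences above that ceiling could not be seen. Under quantile normalization the list median was -0.07 and Tbx3 was not called. The 14 housekeeping genes differed by -0.43 to 0.51, with a median of 0.26 that became -0.04 under quantile normalization.
Formative and primed genes included larger differences. Lefty2 and Lefty1, secreted antagonists of Nodal, were lower in 3B3l-serum: Lefty2 read 4.79 and 4.8 in TKO-serum and 2.77 and 2.72 in 3B3l-serum, and Lefty1 read 4.90 and 4.89 against 3.28 and 3.54. For Lefty2 the J1-serum arrays read 2.70 to 2.90, beside those of 3B3l-serum. Nodal itself differed by -0.42 and was not called. Fgf15, a secreted FGF, read 1.95 and 2.37 in TKO-serum and -0.33 and -0.75 in 3B3l-serum, and the transcription factor Sox3 differed by -1.48 (SE 0.17). Fgf5, a marker of the formative epiblast, went the other way, from -1.91 and -2.01 in TKO-serum to 0.26 and 0.68 in 3B3l-serum (log2 difference 2.43, SE 0.21). In all, 1 of 21 members was called higher and 5 lower in 3B3l-serum, and Otx2 (-0.51) and Pou3f1 (0.63) were not called.

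Of 13 neural genes, 4 were called lower in 3B3l-serum and 1 higher, with 2 to 4 lower when 1 array was left out and 2 with the slide as a block, where the list median turned from -0.44 to 0.09. Hes5 was not called when any 1 of the 4 arrays was left out. The calls included Nefm, a neurofilament chain (-1.99, SE 0.17), and Pax6 (-1.14), which was not called with the slide as a block or without TKO-serum replicate 2 or 3B3l-serum replicate 2. Of 22 primitive endoderm markers, 1 was called higher and 2 lower, with summed signals of 77.3 to 92.1 in TKO-serum and 103 to 108 in 3B3l-serum. Among 23 paternally expressed imprinted genes, 4 were called higher in 3B3l-serum and 1 lower, without TKO-serum replicate 2 there were 2 higher, and with the slide as a block 1 higher and 2 lower. Igf2, a growth factor, was at least 5.08-fold higher in 3B3l-serum, but neither it nor Nnat or Airn was called with the slide as a block. Sgce rose by 1.64 (SE 0.22), and Peg13, an imprinted noncoding RNA, was at least 2.36-fold lower.
Of 27 interferon-response genes, 26 with a value in both lines, 3 were called higher and 1 lower in 3B3l-serum. Gbp2, a guanylate-binding protein, read -0.31 and -0.35 in TKO-serum and 2.10 on both 3B3l-serum arrays, and Ifi27 was at least 2.53-fold lower in 3B3l-serum. The RNA sensor gene Ddx58 rose by 1.36, while the effector genes Isg15 (0.33), Xaf1 (-0.15) and Bst2 (0.48) were not called. Of 18 tested Hox genes, 3 of which passed the filter only through TKO arrays, 2 were called higher and 4 lower in 3B3l-serum, and 2 higher and 1 lower with normexp background correction. Hoxc13 was at least 1.9-fold lower in 3B3l-serum. Among chromatin regulators, 1 of 10 methyl-CpG readers (Zbtb4, not well above background in either line) and 1 of 16 heterochromatin genes (Zfp57, 1.1, not called with the slide as a block) passed the test. So did 2 of 25 polycomb subunits (Bmi1, -1.12, and Cbx7, -1.30, neither called with the slide as a block). Over all tested genes 5.18% were called higher and 5.48% lower in 3B3l-serum, so these small counts show no particular stability of the regulators. Uhrf1, the partner of Dnmt1, differed by 0.46 (SE 0.13), under the fold limit.

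Of the 11 tested genes linked to the Zscan4 state of the 2-cell embryo, 4 were called higher in TKO-serum by the probe with the highest mean. The other 7, among them Zscan4c (-0.33), Zscan4a (-0.64) and Zfp352 (0.45), did not pass the test with that probe. Other probes of Zscan4c and Zscan4a differed by -2.35 and -1.09, so these genes cannot be called unchanged. Zscan4b read 2.90 and 2.94 in TKO-serum and 1.11 and 0.84 in 3B3l-serum, and Zscan4f read 3.47 and 3.44 against 1.45 and 1.71. Tcstv1 read -0.44 and -0.64 in TKO-serum and was not well above background in 3B3l-serum, at least 3.66-fold lower there. Related transcripts such as Gm4312 (2.39 and 2.51 against -0.66 and -0.41) and Pramel20 (1.47 and 1.65 against -1.49 and -1.5) were also higher in TKO-serum. None of these overlapped between the lines, and all 4 list calls were in the same direction with the slide as a block.

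The same 2 lines in 2i gave a second set of arrays for the same contrast. There, 761 genes (5.47%) were called higher in 3B3l-2i and 889 (6.39%) higher in TKO-2i. Of the genes higher in 3B3l-serum, 209 were also higher in 3B3l-2i, 25.2% of the serum list and 27.5% of the 2i list. Of the genes higher in TKO-serum, 331 were also higher in TKO-2i, 36.1% of the serum list and 37.2% of the 2i list. Calls in the opposite direction numbered 43 and 63. The difference between the media was itself tested, and 779 genes (5.6%) had a serum difference greater than that in 2i and 771 (5.54%) a smaller one. Slides again separated the lines in 2i, since both 3B3l-2i arrays lay on slide 3 and the TKO-2i arrays on slides 1 and 2. The shared calls are therefore not independent support for a difference between the lines. Of the 209 and 331 shared genes, 102 and 222 were also called in serum with the slide as a block.

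X-linked family members were also called in 2i. There, 10 of 10 tested Xlr-type genes, 7 of 15 Rhox genes and 7 of 9 Mage genes, most of them tested only through TKO arrays, were called higher in TKO-2i, and 74 X-linked genes in all (13.7%, against 5.0% of autosomal genes). Of the 73 X-linked genes called in serum, 50 were also called in 2i. The filter on dim probes limits these counts as it does in serum. Xlr3b averaged 3.29 in TKO-2i and -1.57 in 3B3l-2i with the probe whose difference was the larger in serum, a log2 difference of -4.87 beside -4.88 in serum (limma adjusted p = 0.98 for the change of the difference). Dnmt3b, with 6.46 in 2i beside 5.87 in serum, and Lefty2, with -2.27 beside -2.05, were also called in both media without a called change. Dazl was lower in 3B3l by -2.20 in 2i, with means of 3.89 in TKO-2i and 1.69 in 3B3l-2i.
The piRNA list had 4 genes called higher and 4 lower in 3B3l-2i, and the meiosis list 7 higher and 1 lower. Stra8, -2.07 in serum, was 3.74 in 2i, where it averaged 3.58 in 3B3l-2i and -0.16 in TKO-2i (limma adjusted p = 4.4e-08 for the change). Fkbp6 was lower in 3B3l in both media, but less so in 2i (-2.01 with its main probe; limma adjusted p = 0.00072 for the change).
The contractile and keratin genes gave few calls in 2i. Of the contractile list 2 members were called higher in 2i and 0 lower, and of the trophoblast list 2 in each direction. Krt8 averaged 2.63 in TKO-2i and 2.22 in 3B3l-2i, a difference of -0.41 against 3.66 in serum (limma adjusted p = 7.8e-09 for the change). Krt19 changed sign, from 3.45 in serum to -1.65 in 2i, where it was not well above background in 3B3l. Tgfb2 was not well above background in either line in 2i. Spry2 (2.80 in 2i) and Cdx1 (2.70) were called higher in 3B3l in both media with no called change. So were Itga3 and Nt5e, which were not well above background in TKO-2i.
Single 2-cell genes changed sign. Zscan4b was not well above background in TKO-2i and averaged 3.55 in 3B3l-2i, beside a log2 difference of -1.95 in serum, and 8 of the 11 tested members were called higher in 3B3l-2i. Dppa3, an oocyte and naive-state factor, did not differ by a called amount in serum (-0.07, SE 0.20) but averaged 1.65 in TKO-2i and was not well above background in 3B3l-2i.

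**Figure D5:**
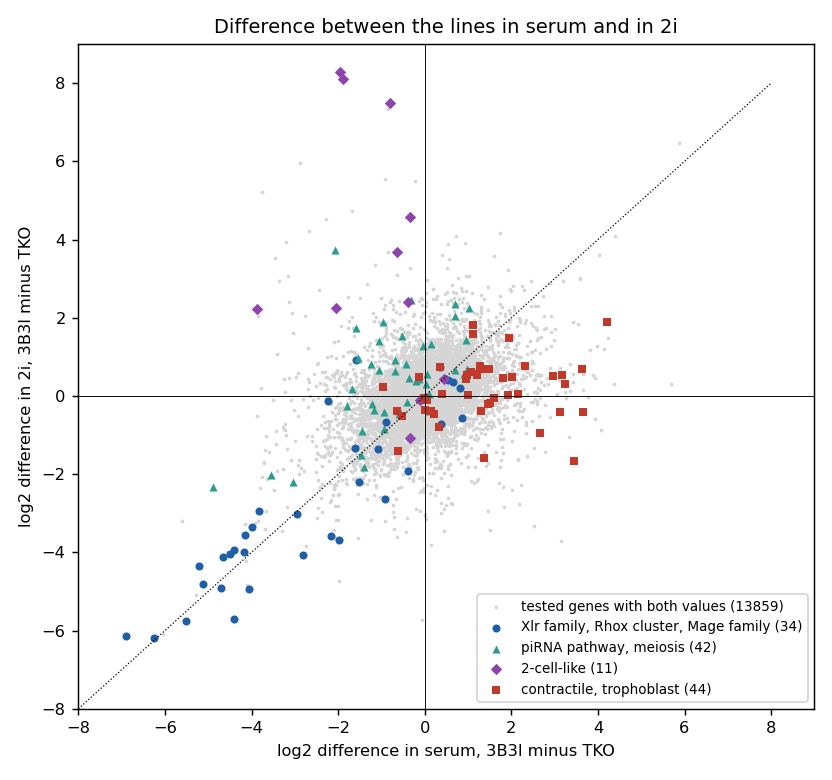
Log2 difference 3B3l minus TKO in serum (x axis) against the same difference in 2i (y axis) for each tested gene with both values, read by its probe with the highest mean (grey); coloured symbols mark the Xlr, Rhox and Mage lists, the piRNA and meiosis lists, the 2-cell list and the contractile and trophoblast lists, and the dotted line marks equal differences. Many points of the X-linked families lie at the lower left, and 8 of the 11 2-cell genes were called higher in 3B3l-2i.

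Wild-type J1-serum cells, on feeders, can be set beside both lines only as values, because both contrasts share those arrays and the feeders differ. For Dazl, J1-serum read -0.06 to 0.62, a difference of 2.33 for TKO-serum minus J1-serum and -0.72 for 3B3l-serum minus J1-serum. For Fkbp6 the 2 differences were 2.86 and -0.70 and for Lefty2 2.00 and -0.05. For Xlr3b they were 1.74 and -2.97. In Dazl, Fkbp6 and Lefty2 the 3B3l-serum mean lay nearer to J1-serum than the TKO-serum mean did, while in Xlr3b it lay below J1-serum and the TKO-serum mean above. For Krt8 they were -1.27 and 2.39. For Col1a1 they were -3.53 and -0.63, and for Tagln -1.44 and 0.57.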

How the data were processed

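Gene expression was measured on 16 1-colour Agilent mouse arrays in 6 groups, given by the labels. The deposited scanner files hold processed signal intensity per spot, background-corrected by the authors with Agilent Feature Extraction 11.5.1.1 according to the submitters' processing notes, together with spot flags (other). A deposited table of the authors' normalized log2 values for 30170 probes served as an alternative.

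The log2 of each processed signal was taken relative to the array's 75th percentile. Control spots and outlier flags were left out, spots of 1 probe were averaged, and a probe was tested if all arrays of some group read it well above background: 27126 of 55681 probes, 17849 of them named, for 13917 genes. limma 3.58.1 (R 4.3.3) fitted all 16 arrays as 6 group means with eBayes, and p-values were adjusted by Benjamini-Hochberg over the tested probes. Calls were made at an adjusted p no higher than 0.05 and a 2-fold difference. A gene was counted when 1 of its probes was called, and gene lists and chromosomes used the probe with the highest mean. "At least" folds set the brighter group's mean against the dimmer group's lowest detectable signals. Precision is limited by the number of arrays.

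Genes were named by the size of their difference in each direction, by being named in the study, by membership in the lists or in runs of neighbouring genes, and by the size of the difference between serum and 2i. Those named for size with both lines well above background were taken only from probes whose groups did not overlap. List members that were not called were named after their values were seen. The members and lists were chosen with earlier results of these data known. Alternatives were other scalings, background corrections, filters, tests and blocks, and leaving out single arrays. Gene order and promoter sequences are those of RefSeq (GRCm38.p6), with Python 3.11.15 and pandas 2.3.3. Where fewer than 80% of a set's genes had a promoter window, its CpG counts were not used.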

Additional observations from a re-analysis of the deposited data

Results flagged for a closer look

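The difference between the lines was itself different in serum and in 2i for 1549 genes (limma, adjusted p of at most 0.05 and a change of at least 2-fold in the difference). Each value in the next sentences is the log2 difference 3B3l minus TKO in serum minus that in 2i. It was 4.52 for Phldb2, 2.64 for Ly6c1, 2.95 for Anxa3, 2.86 for Vgf and 2.63 for Thbs1. Among the keratins it was 4.07 for Krt8, 5.11 for Krt19 and 2.93 for Krt7. For genes not well above background in TKO-serum it was 5.39 for Tgfb2, 7.02 for Sprr2a2, 3.42 for Pmp22, 3.11 for 9130008F23Rik, 3.51 for Tgfb1i1 and 4.10 for Ccn4.

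Among the germ cell genes with a called change were Fkbp6 at -1.78 and -1.54 with its 2 probes, Asz1 at -2.57, Scml2 at -1.45 and Xlr4a at 1.30. Larger negative values belonged to the Zscan4 genes, with -10.23 for Zscan4b, -9.99 for Zscan4f, -9.0 for Zscan4c and -8.50 for Zscan4a. For Zscan4c and Zscan4a these come from other probes than those read for the 2-cell list, with serum differences of -2.35 and -1.09. Gm13043 had -8.97, Gm20767 -8.83, Gm4312 -7.80, Gm11543 -6.32, Gm38423 -5.52 and Pramel20 -4.65. Gm10845 had -2.08 and 1700018B24Rik -2.40. Positive values were found for Mal (6.86), Dppa3 (5.66), Krtdap (4.94) and Sfrp1 (1.11), and negative ones for Pax6 (-1.34), Fgf15 (-2.41), Hoxc13 (-1.18) and Dnmt3l (-1.14), of which Dnmt3l was saturated in serum. For Krt19, Krt7, Vgf, Thbs1, Asz1, Xlr4a, 1700018B24Rik, Pax6, Fgf15, Hoxc13, Mal, Dppa3, Krtdap, the Zscan4 genes, Gm13043, Gm20767, Gm4312 and the genes not well above background in TKO-serum, at least 1 group was not well above background, so these values rest in part on signals near background and give no exact size. A further 62 genes of the lists and runs, among them Stra8 (-5.82), had a called change.

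In J1-serum, 1 array stood apart from the other 3 for Dazl, with a gap of 0.902 of the group's range, and for Krt18, with a gap of 0.930. In both genes it was replicate 1, the lowest of the 4 and the array that shares slide 3 with the 3B3l arrays. Chance flags about 1 in 20 groups.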

How the results depend on the processing

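Of 1741 genes called in serum (830 higher in 3B3l-serum, 916 higher in TKO-serum), a filter on all 16 arrays left 710 (432 and 278), dropping the fold limit gave 5085 (3131 and 1987), and a 1.5-fold limit gave 3781 (2144 and 1657). In 2i the same settings gave 669, 5184 and 3545 genes, and for the difference between the media 669, 2561 and 2446. An unpaired t-test on the same values gave 0 genes after Benjamini-Hochberg adjustment (0 and 0) and 1483 unadjusted, beside the 1741 of limma. With normexp background correction 564 genes were higher in TKO-serum. The share of calls higher in 3B3l-serum was 47.5% in the main setting, 56.1% with normexp, 60.9% with the filter on all 16 arrays, 42.1% with quantile normalization and 53.6% with the slide as a block. Leaving out single arrays of the lines compared gave 1579 to 1776 genes (780 to 875 and 797 to 987), 1551 to 1688 in 2i and 1447 to 1607 for the difference between the media, and leaving out J1-serum replicate 1 gave 1812 in serum (855 and 965).

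With the slide as a block 1377 genes were called, 1002 of them in the main calls, 68 called probes changed sign and 6 genes were called in the opposite direction. Among the named genes, Lef1 (0.0626), Gm5168 (0.20) and Dmgdh (-3.32, from 1.57) changed sign. The cause was not tested, and the block rests on J1-serum replicate 1. With the replicate number as a block 1739 genes were called (834 and 911), 1703 of them shared. Same-numbered serum arrays deviated with r = -0.134, and the crossed pairing gave 1712. With 2 arrays per line these values cannot decide whether the numbers pair the samples. Saturation of Pou5f1, Zfp42 and Dnmt3l and dim signals near background limit what the arrays could show.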
